A study of Drosophila melanogaster with 2 samples.

Results

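Contacts between different chromosomes were counted for the 8 pairs of arms that join chromosomes 2, 3 and X of Drosophila melanogaster: X with 2L, 2R, 3L and 3R, and 2L and 2R each with 3L and 3R. These are 8 of the 15 pairs that the 5 large arms can form when an arm with itself is included, and they were chosen by position alone, with the maternal and paternal copies of each arm pooled. They held 533013 of 24390496 read pairs in replicate 1 and 650894 of 24659056 in replicate 2. The data are Hi-C, in which DNA fixed inside the nucleus is cut, nearby ends are ligated and each ligated molecule is read from both ends, from whole F1 hybrid embryos collected at 2 to 4 h, in 2 biological replicates of 1 condition. The mothers were of line DGRP-057 and the fathers of line DGRP-439, both inbred lines, and each library was made from a pool of fixed embryos, so neither cell types nor single embryos, nor the sexes, can be told apart. The study was designed to compare maternal and paternal homologs, and it also examined how different arms lie alongside each other.

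Chromosomes 2 and 3 each have a left and a right arm joined at a central centromere, and X has its centromere near 1 end. After mitosis in the early embryo, centromeres lie on one side of the nucleus and telomeres on the other, an arrangement named after Rabl, with the arms running between these poles. Loci at a like distance from the centromere then lie at a like depth of the nucleus. Female embryos carry a pair of X chromosomes and male embryos carry a maternal X only, so X is present in fewer copies than an autosome in a mixed pool. An end could be assigned to a parental copy only where it overlapped a single-nucleotide variant (SNV), which sets how much of each arm can be seen.

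The deposited pairs gave 5264395 informative pairs in replicate 1 and 6082272 in replicate 2, where informative means that the ends lay on different arms or at least 3 kb apart on the same arm. Interchromosomal pairs made up 10.1% of these in replicate 1 and 10.7% in replicate 2. Each of the 4 strand orientations took between 24.8% and 25.2% of the interchromosomal pairs. In 21.5% and 21.7% of them the aligner gave each end a mapping quality of 30 or more. X had the fewest informative ends for its length, 43.7 ± 5.42 per kb (SD, n = 2), against 97.1 to 118 per kb on the 4 autosomal arms, and 20.7% ± 1.11 of X ends were interchromosomal, against 9.16% to 10.1% on the autosomal arms. With 2 replicates of 1 condition there was no group to test. An exact permutation test of 2 values against 2 cannot give a p below 0.33, so values are given per replicate or as mean ± SD (n = 2), and 95% Poisson intervals cover counting error only.

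By raw counts, X met the autosomal arms less often than chromosomes 2 and 3 met each other. There were 90.7 to 98.3 contacts per square Mb (mean of 2 replicates) in the 4 X pairs, against 159 to 176 in the 4 pairs of chromosomes 2 and 3. Divided by the product of the informative ends of both arms, which is the coverage, the order turned round. The 3R-X pair had the highest observed over expected (O/E), at 1.32 in replicate 1 and 1.35 in replicate 2, and 2R-X followed at 1.26 and 1.31. The 3L-X pair stood at 1.23 and 1.27, and 2L-X, the lowest X pair, at 1.13 and 1.15. All 4 pairs of chromosomes 2 and 3 lay below these and below 1 in both replicates. Among them 2R-3R was highest, at 0.973 and 0.943, and 2R-3L next, at 0.934 and 0.932. The neighbours at the low end, 2L-3L at 0.873 and 0.870 and 2L-3R at 0.884 and 0.856, changed places between the replicates. The highest of the 8 values was 1.55 ± 0.051 times the lowest. The 95% Poisson interval was 1.31 to 1.33 for 3R-X in replicate 1, which is narrower than the distance between the replicates.

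The direction for X rested on the expectation. Over the 4 X pairs together, O/E was 1.38 ± 0.044 times that of the 4 pairs of chromosomes 2 and 3 by coverage, and 1.24 ± 0.058 times when pairs under 3 kb were added to the coverage. It was 1.48 ± 0.057 times when the coverage came from pairs within an arm only, so that interchromosomal ends did not enter their own expectation. By arm length in place of coverage it was 0.558 ± 0.031. A pair within an arm is kept only if both ends overlap a SNV, so the visible share of an arm enters its coverage as a square, whereas it enters an interchromosomal pair once for each arm. An expectation from the square root of arm length times coverage gave 0.879 ± 0.039. X held 66.0% maternal ends, which corresponds to 0.757 X copies for each autosome copy if a maternal and a paternal X are equally visible. With that number of copies in the square root as well, the ratio was 1.01 ± 0.037, and with coverage from pairs within an arm it was 1.05 ± 0.042. The 8 arm pairs then differed by 1.11 ± 0.034 times and 1.15 ± 0.067 times from lowest to highest. Whether X met autosomes more or less often than the autosomes met each other was therefore not settled by these pairs, since the sign followed the way the visible share and the copies of X were counted.

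**Figure D1:**
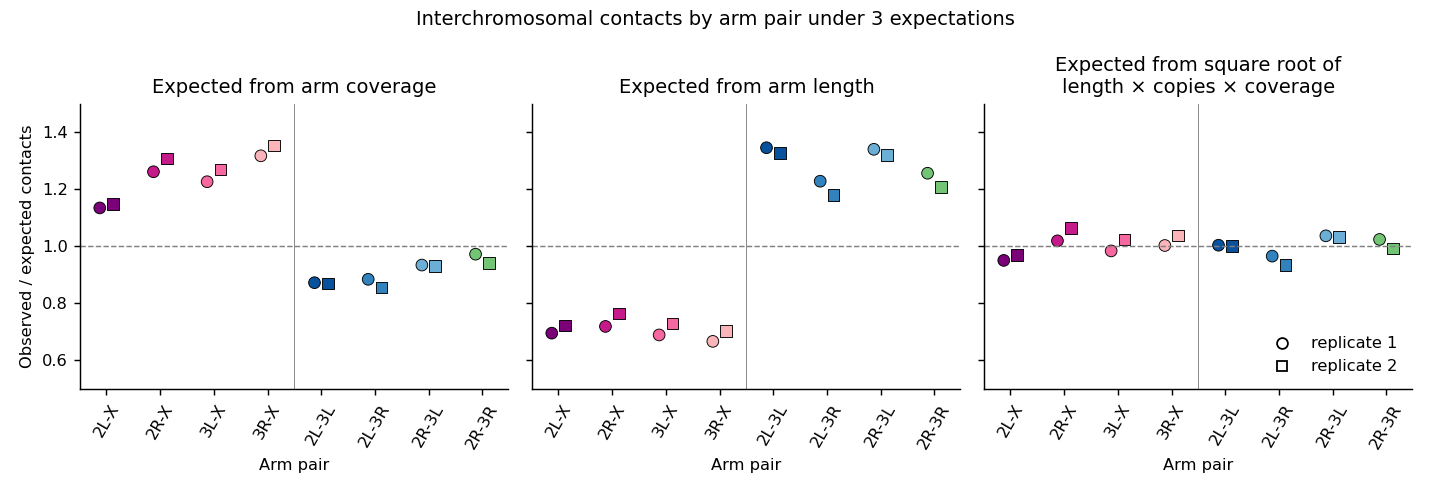
Observed over expected contacts (vertical axis, a ratio without unit) of each of the 8 arm pairs (horizontal axis), with circles for replicate 1 and squares for replicate 2, under 3 expectations. The 4 X pairs lie above the 4 pairs of chromosomes 2 and 3 by coverage and below them by arm length, and all 8 lie close to 1 when the square root of length, copies and coverage is used.

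A comparison of left with right arms needs no expectation for total coverage, because the total of each arm cancels in a ratio of 4 counts. How coverage is spread along an arm does not cancel. Nor does coverage cancel fully with 1 end on each side, where counts of both ways are summed. Arms of the same side met slightly more often: 2L with 3L and 2R with 3R, over 2L with 3R and 2R with 3L, gave an odds ratio of 1.027 in replicate 1 (95% interval 1.013 to 1.041) and 1.029 in replicate 2 (1.016 to 1.041). It was largest in the telomere-side parts. Where both ends lay nearer the telomere than the centromere, the odds ratio was 1.060 and 1.058. Where both lay nearer the centromere it was 1.022 and 1.003, and with 1 end on each side it was 0.999 and 1.014, with intervals that held 1 in both replicates. The map of X runs from its telomere to its centromere, as those of the left arms do. X met left arms less than right arms when set against autosomal arms. Its left over right odds ratio divides the left over right counts of X with 1 autosome by those of an arm of the other autosome. This ratio was 0.966 in replicate 1 and 0.944 in replicate 2. With both ends on the telomere side it was 0.913 and 0.884, with both on the centromere side 0.978 and 0.930, and with 1 end on each side 1.002 and 1.000. The 4 ways of forming this ratio gave between 0.858 and 0.971 on the telomere side in replicate 1, and between 0.823 and 0.950 in replicate 2, so all lay below 1. On the centromere side they gave between 0.952 and 1.006 in replicate 1 and between 0.923 and 0.938 in replicate 2.

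Position along the arm moved contact frequency more than the identity of the arms did among autosomes. Each arm was cut into 10 parts of equal length, from part 1 at the centromere end to part 10 at the telomere end, and the expectation was set within each arm pair from the coverage of the parts. Contacts in which both ends lay in the same part were at 1.22 and 1.26 times the expected number (68654 and 86116 contacts), against 0.829 and 0.791 times for ends at least 5 parts apart (110435 and 128802 contacts). The ratio of matched over mismatched position was 1.47 in replicate 1 and 1.59 in replicate 2, and it was above 1 in all 8 arm pairs of both replicates. It was 1.73 ± 0.142 in 3R-X, 1.70 ± 0.122 in 2R-3R and 1.69 ± 0.138 in 2R-3L. These values lay closer to each other than the replicates did, with 3R-X the highest in both replicates. It was 1.54 ± 0.081 in 2L-3R and 1.53 ± 0.083 in 2L-3L, followed by 1.41 ± 0.042 in 3L-X and 1.36 ± 0.031 in 2R-X. The lowest ratio was that of 2L-X, at 1.12 in both replicates.

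The fall with mismatch was gradual. Over the 8 arm pairs, O/E was 1.24 ± 0.025 for ends whose scaled positions differed by less than 5% of the arm, 1.04 ± 0.012 at 20 to 25% and 0.821 ± 0.028 at 50 to 55%. Beyond that it lay between 0.782 and 0.806 with coverage from informative ends, but with coverage from interchromosomal ends it went on down to 0.713 ± 0.031 at 85 to 100%. The arm pairs parted there: 2L-3L stood at 0.880 ± 0.013 at 85 to 100%, and 3L-X at 0.640 ± 0.0056. The 2L-X pair did not follow this course. It stood at 1.05 ± 0.0078 below 5%, at 0.992 ± 0.014 at 15 to 20%, and again at 1.06 ± 0.00011 at 35 to 40%. The 3R-X pair had the steepest course, with 1.31 ± 0.032 below 5% and 0.598 ± 0.0096 at 85 to 100%.

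**Figure D2:**
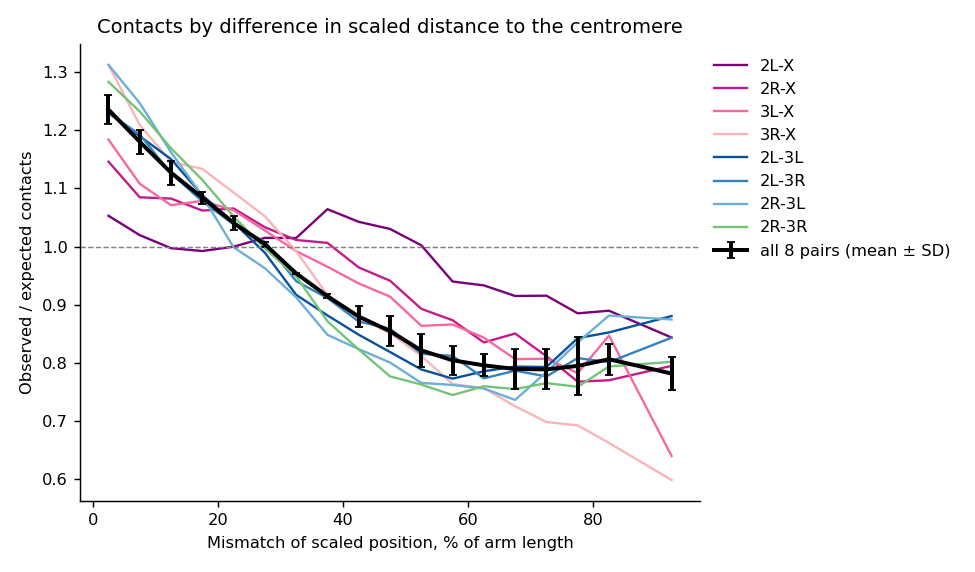
Observed over expected contacts (vertical axis) against the difference of the ends' scaled distances to the centromere in percent of arm length (horizontal axis), as means of 2 replicates, with a coloured line for each arm pair and the black line with SD bars for all 8. The black line falls to 0.821 at 50 to 55%, and the 2L-X line is the flattest up to that point, with a second rise at 35 to 40%.

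X and the autosomes were not matched part for part. The 4 pairs of chromosomes 2 and 3 were pooled, as were the 4 X pairs, with coverage from interchromosomal ends. For each part of the arms of chromosome 3, the part of chromosome 2 with the highest O/E lay at most 1 part away. This held in all 10 parts and in both replicates. In 2L-3R alone, part 5 of 3R peaked with part 7 of 2L, at 1.18 against 1.10 with the same part (means of 2 replicates). Part 8 of 3R peaked with part 10 of 2L, at 1.26 against 1.04. A shift towards the telomere was thus not confined to X. For the parts of X, the autosomal part with the highest O/E lay over 1 part away in 6 of 10 parts in replicate 1 and 7 in replicate 2, and up to 4 parts away. It was nearer the telomere than the part of X in 7 and 8 of the 10, against 5 and 5 of 10 for the arms of chromosome 3 with those of chromosome 2. Part 3 of X peaked with autosomal part 6, at 1.16 in replicate 1 and 1.15 in replicate 2, against 1.03 and 0.997 with the same part. Part 7 of X peaked with autosomal part 10, at 1.29 and 1.37, against 1.04 and 1.01 with the same part. At the ends of X the peak lay at the same part: part 10 of X peaked with part 10 at 1.93 and 2.13, and part 1 of X with part 1 at 1.66 and 1.61, where 190 and 184 of the contacts fell in 5 locus pairs described further on. In the middle of X the peaks were low, and the peak of part 4 was at part 8 in replicate 1 and at part 6 in replicate 2.

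**Figure D3:**
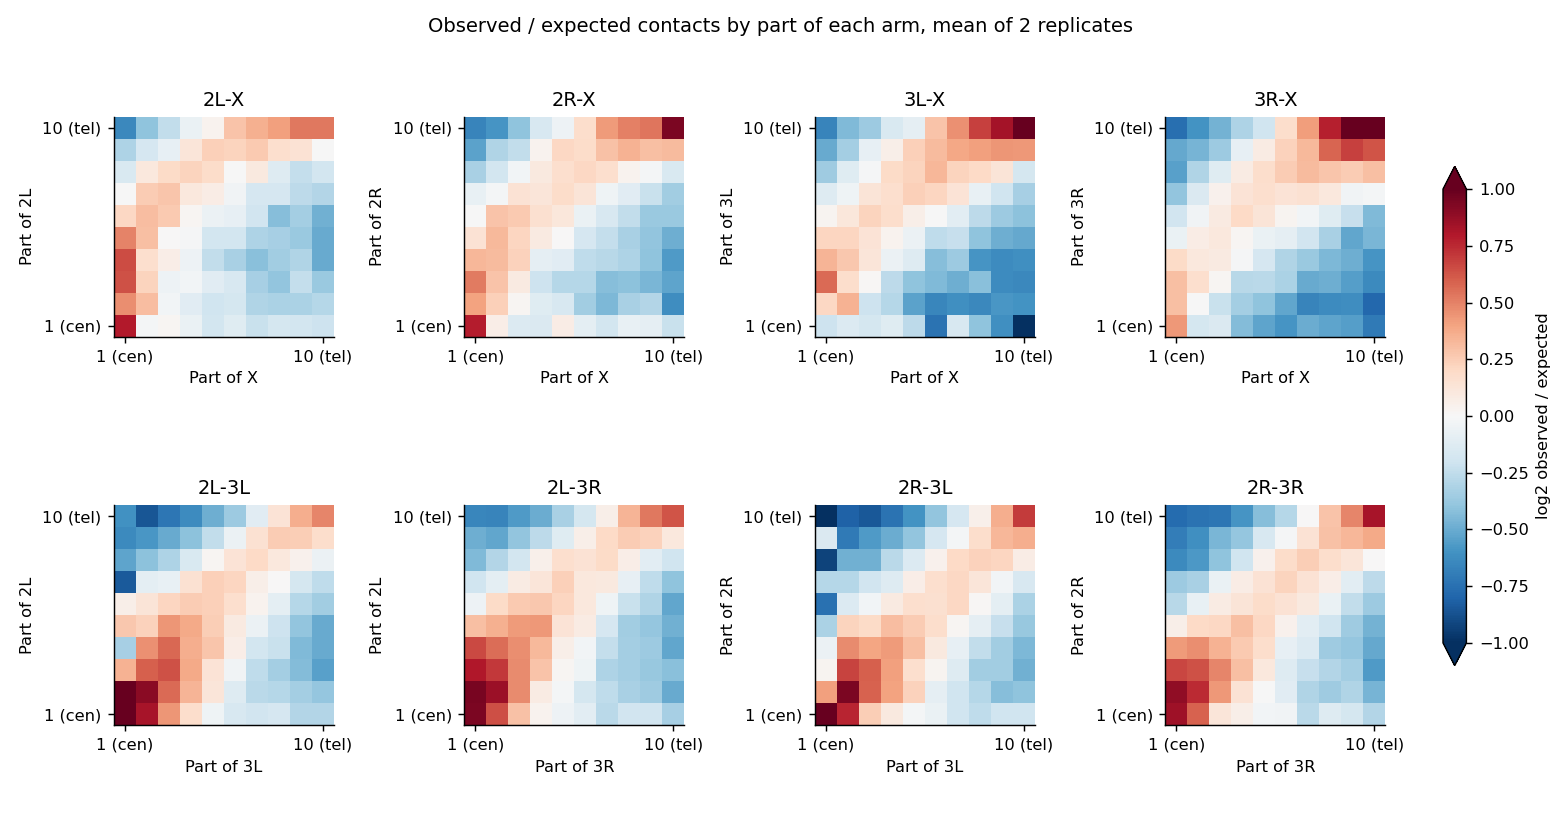
Contact maps of the 8 arm pairs, with the 10 parts of 1 arm on each axis running from the centromere end (cen) to the telomere end (tel) and the colour giving log2 of observed over expected (coverage from interchromosomal ends, mean of 2 replicates, colours capped at -1 and 1). Pairs of chromosomes 2 and 3 have a diagonal band. With the 4 X pairs pooled, the highest value for most parts of X lies nearer the telomere of the autosomal arm.

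The telomere ends met each other in every arm pair. Contacts between part 10 of both arms were at 1.95 and 2.12 times the expected number over the 8 pairs (12502 and 16428 contacts), against 0.788 and 0.735 times for the centromere end of an arm with the telomere end of another (4357 and 4953 contacts). In all 8 arm pairs and both replicates the telomere value was above 1 and the mixed value below 1. The telomere value was 2.88 ± 0.206 in 3R-X, 2.68 ± 0.190 in 2R-X, 2.50 ± 0.223 in 3L-X and 2.06 ± 0.159 in 2L-X. Among chromosomes 2 and 3 it was 2.00 ± 0.134 in 2R-3R, 1.96 ± 0.077 in 2R-3L, 1.79 ± 0.083 in 2L-3R and 1.73 ± 0.049 in 2L-3L. Part 10 of X had 0.671 and 0.683 times the mean coverage of the arm, and 23.8% and 25.5% of its informative ends were interchromosomal. With coverage from interchromosomal ends the telomere value was 1.70 ± 0.065 over the 8 pairs. The 3R-X pair was then highest at 2.52 ± 0.173 and 2L-3L lowest at 1.40 ± 0.013. The 3L-X pair stood at 2.04 ± 0.184 and 2R-X at 1.92 ± 0.102. The 2L-X pair stood at 1.44 ± 0.099. This was below 2R-3R (1.77 ± 0.063), 2R-3L (1.63 ± 0.018) and 2L-3R (1.55 ± 0.038), so not every X pair stayed on top.

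O/E was highest at the very tips. When both ends lay within 250 kb of the telomere end of their arms in the dm3 build, O/E was 23.2 ± 1.90 over the 8 pairs. It was 5.55 ± 0.299 at 250 to 500 kb, 2.19 ± 0.101 at 500 to 1000 kb, 1.61 ± 0.090 at 1000 to 2000 kb and 1.35 ± 0.033 at 2000 to 4000 kb. With coverage from interchromosomal ends, the value within 250 kb was 9.87 ± 1.13 and the value at 2000 to 4000 kb was 1.32 ± 0.020. The counts behind the tip window were small, 349 contacts in replicate 1 and 402 in replicate 2 over the 8 pairs, with 6 to 154 and 7 to 186 for a pair. The 95% interval of every pair lay above 1 in both replicates. The tip windows were not recounted with a mapping quality of at least 30. In the 2R-3R tip bins of 200 kb described further on, 13.8% and 8.64% of contacts had both ends at that quality. The 2R-3R tips gave 154 contacts in replicate 1, where 8.03 were expected, and 186 in replicate 2, where 9.91 were expected. The 3R-X tips gave 53 contacts against 1.32 expected in replicate 1, and 64 against 1.83 in replicate 2. For 2L-3L the 6 and 7 contacts stood against expectations of 0.0723 and 0.0938, so its O/E of 83.0 in replicate 1 has an interval of 30.5 to 181 and moved to 10.9 with coverage from interchromosomal ends.

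**Figure D4:**
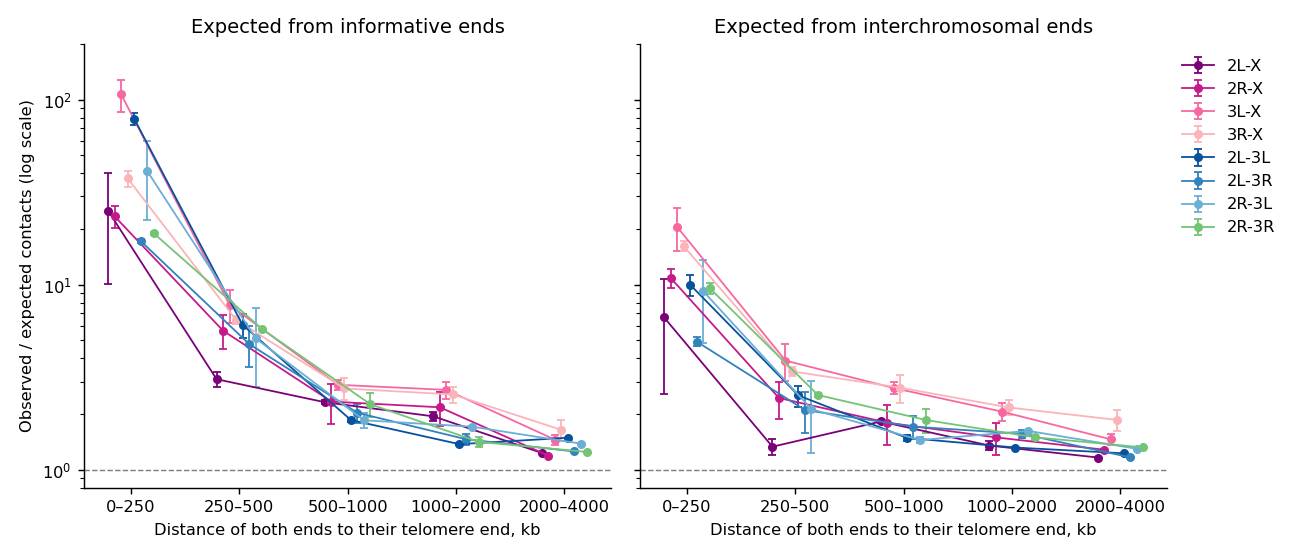
Observed over expected contacts (vertical axis, log scale) by the distance of both ends to the telomere end of their arm in kb (horizontal axis), mean of 2 replicates with SD bars, for each of the 8 arm pairs and with the expectation from informative ends (left) or from interchromosomal ends (right). Every pair is highest in the window of 0 to 250 kb, and the values there are lower on the right.

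The centromere ends met each other too, on fewer counts. Contacts between part 1 of both arms were at 1.87 times the expected number in replicate 1 and 1.91 times in replicate 2, from 1427 and 1812 contacts. Part 1 of 3L held only 519 and 673 informative ends, 44.7% and 45.9% of them interchromosomal, and its pair with X rested on 4 and 6 contacts, so its values carry no weight. Over the 5 arm pairs without 3L, the centromere value was 1.83 ± 0.020, and it was 1.64 ± 0.060 when 5 locus pairs of 200 kb with an O/E of at least 5 in both replicates were also left out, a choice made after seeing the data. It was 2.50 ± 0.294 in 2L-3R and 2.18 ± 0.036 in 2R-3R, and it was 1.71 ± 0.107 in 2L-X, 1.68 ± 0.223 in 3R-X and 1.58 ± 0.046 in 2R-X. All 5 locus pairs lay in 2L-X and 2R-X, and they held 100 of 445 and 106 of 507 contacts of the 2L-X corner and 90 of 337 and 78 of 415 of the 2R-X corner. Without them 2L-X stood at 1.37 ± 0.067 and 2R-X at 1.25 ± 0.054. Along the diagonal, O/E was 1.89 ± 0.026 in part 1, 2.00 ± 0.020 in part 2, 1.31 ± 0.034 in part 3 and lowest, at 0.960 ± 0.0070, in part 6. With coverage from interchromosomal ends, part 1 stood at 1.74 ± 0.027, above part 2 at 1.53 ± 0.040, and part 6 stood at 1.07 ± 0.011, so whether the middle of the arms had fewer matched contacts than expected rested on the coverage used.

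The left and right arms of chromosomes 2 and 3 gave a scale for these values. Matched over mismatched position was 1.53 ± 0.081 in the 8 interchromosomal pairs together, against 2.47 ± 0.248 for 2L with 2R and 2.22 ± 0.251 for 3L with 3R, arms that share a centromere. In both replicates each of these left-right values lay above that of every interchromosomal arm pair. The centromere value differed most for chromosome 2, at 1.89 ± 0.026 between chromosomes against 7.02 ± 0.0058 for 2L with 2R. These contacts are among the matched ones. For 3L with 3R it was 11.7 ± 0.795, resting on the thinly covered part 1 of 3L. On that same part it was 23.6 ± 0.395 in 2L-3L, 22.5 ± 2.85 in 2R-3L and 4.17 ± 0.092 in 3L-X. No order for 3L can be read from these. The telomere value differed less: 2.04 ± 0.123 between chromosomes, against 2.14 ± 0.158 for 2L with 2R and 1.89 ± 0.215 for 3L with 3R. In both replicates 2L with 2R lay above the value between chromosomes (2.03 against 1.95, and 2.25 against 2.12). The value of 3L with 3R lay below it in both, at 1.74 and 2.05. The mixed value was 0.761 ± 0.037 between chromosomes, against 0.609 ± 0.025 and 0.671 ± 0.032.

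Arms differ in length, from 21.1 Mb for 2R to 27.9 Mb for 3R, so loci can be aligned by scaled position or by distance in Mb. Within 1 Mb of exact alignment, and over the stretch present on both arms, O/E was 1.15 ± 0.015 by scaled position. It was 1.18 ± 0.018 by distance from the centromere, a ratio of 0.976 and 0.974 in the replicates. That stretch leaves out the telomere end of the longer arm of a pair. The pooled value hid opposite cases. Distance from the centromere gave more contacts in 2L-3R, with a ratio of 0.897 ± 0.024, and scaled position gave more in 3L-X (1.06 ± 0.0058) and 3R-X (1.05 ± 0.017). Contacts were also split into 3 equal stretches by the mean scaled position of both ends. At the telomere stretch the 8 pairs together had an O/E of 1.37 ± 0.047 by scaled position. It was 1.35 ± 0.045 by distance from the telomere and 1.25 ± 0.035 by distance from the centromere. In the same order, the values were 1.48 ± 0.013, 1.29 ± 0.0045 and 1.48 ± 0.0045 at the centromere stretch. They were 1.01 ± 0.0082, 0.965 ± 0.0054 and 1.03 ± 0.012 at the middle stretch. The 2 distances differed most in 3R-X at the telomere stretch and in 2R-3R at the centromere stretch. O/E at the telomere stretch of 3R-X was 1.68 ± 0.064 by scaled position and 1.68 ± 0.123 by distance from the telomere, against 1.14 ± 0.018 by distance from the centromere. At the centromere stretch of 2R-3R the reverse was found, with 1.82 ± 0.032 by scaled position and 1.83 ± 0.022 by distance from the centromere, against 1.11 ± 0.0098 by distance from the telomere. Other pairs went against the pooled values. At the telomere stretch, 2L-3R had 1.34 ± 0.064 by distance from the centromere and 1.20 ± 0.025 by distance from the telomere, and 2L-3L had 1.34 ± 0.038 and 1.29 ± 0.025. At the centromere stretch, 3L-X had 1.27 ± 0.018 by distance from the telomere and 1.13 ± 0.033 by distance from the centromere, and 2L-X (1.18 ± 0.062 and 1.14 ± 0.052) and 2L-3L (1.65 ± 0.062 and 1.62 ± 0.047) differed the same way by less than their SD.

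Pooling the parental copies hid a small preference. The odds that both ends came from the same parent, as maternal with maternal and paternal with paternal over the mixed combinations, were 1.06 in replicate 1 and 1.10 in replicate 2 as the geometric mean of the 8 arm pairs. All 8 odds ratios were above 1 in both replicates, and the 95% interval lay above 1 for 6 pairs in replicate 1 and for 8 in replicate 2. The 2R-3L pair had 1.07 and 1.15 and 2R-3R had 1.07 and 1.12. The lowest was 2L-X, at 1.03 and 1.07. The replicates differed by more than the counting error of some pairs, so the size is less certain than the direction.

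Single locus pairs stood far above this smooth pattern. In bins of 200 kb, 13002 of 97716 bin pairs with coverage had at least 10 contacts in replicate 1, and of these 69 (0.531%) had an O/E of at least 5 in replicate 1 and 27 (0.208%) in both replicates. The median O/E of the 69 in replicate 2, which played no part in choosing them, was 4.13, against 1.05 for all bin pairs with at least 10 contacts. Of the 27, 17 had both bins within 1 Mb of a telomere end, 5 had both within 2 Mb of a centromere end, and 5 had neither. Only 91 bin pairs near telomeres and 8 near centromeres reached 10 contacts, and a bin pair with a low expected count reaches 10 only if its O/E is high: the median expected count was 4.44 near telomeres and 1.90 near centromeres, against 9.67 over all. The shares of these sets above 5 are therefore no result of their own.

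The 5 locus pairs with the highest O/E in replicate 1 were of different kinds. They are named by their dm3 coordinates, with no gene annotation of that build used here. The first joined chr3L:20200001-20400000 and chrX:19200001-19400000, with 53 and 72 contacts and an O/E of 37.0 and 39.2. On X nearly all of its contacts, 52 of 53 and 69 of 72, lay in a window of 5 kb. On 3L its contacts were less crowded, with 18 of 53 and 20 of 72 in the fullest window of 5 kb. The paternal copies were joined in 83.0% and 69.4% of its contacts. The third, chr2L:22200001-22400000 with chrX:21800001-22000000, had 58 and 69 contacts and an O/E of 30.5 and 29.6, and 57 and 68 of them fell in 1 cell of 5 by 5 kb. The fourth, chr2R:600001-800000 with chrX:22200001-22400000, had 46 and 41 contacts and an O/E of 24.2 and 17.1. It had 35 and 33 of its contacts in 1 such cell, and 97.8% and 95.1% joined the maternal copies. In these 3 pairs at most 5.17% of contacts had ends that both reached a mapping quality of 30. Low mapping quality and crowding into 1 window on at least 1 arm occurred together in these 3 pairs. The part of either in the values was not tested.

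The other two joined telomere tips, and their contacts were spread out. Their mapping quality was low as well: both ends reached 30 in 13.8% and 8.64% of the contacts of the second pair and in 0% of those of the fifth. The second, chr2R:21000001-21146708 with chr3R:27800001-27905053, had 80 and 81 contacts and an O/E of 31.9 and 25.8, spread over 67 and 75 cells of 5 by 5 kb with at most 3 contacts in a cell. The fifth, chr2L:1-200000 with chr3R:27800001-27905053, had 12 and 11 contacts, each in a cell of its own, and an O/E of 23.8 and 17.5. No combination of parental copies held more than 50% of the contacts in either pair. Among all 27 locus pairs, 6 had over 50% of their contacts in 1 cell as the mean of the replicates, and none of the 17 near telomeres did, where the fullest cell held at most 13.3%.

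**Figure D5:**
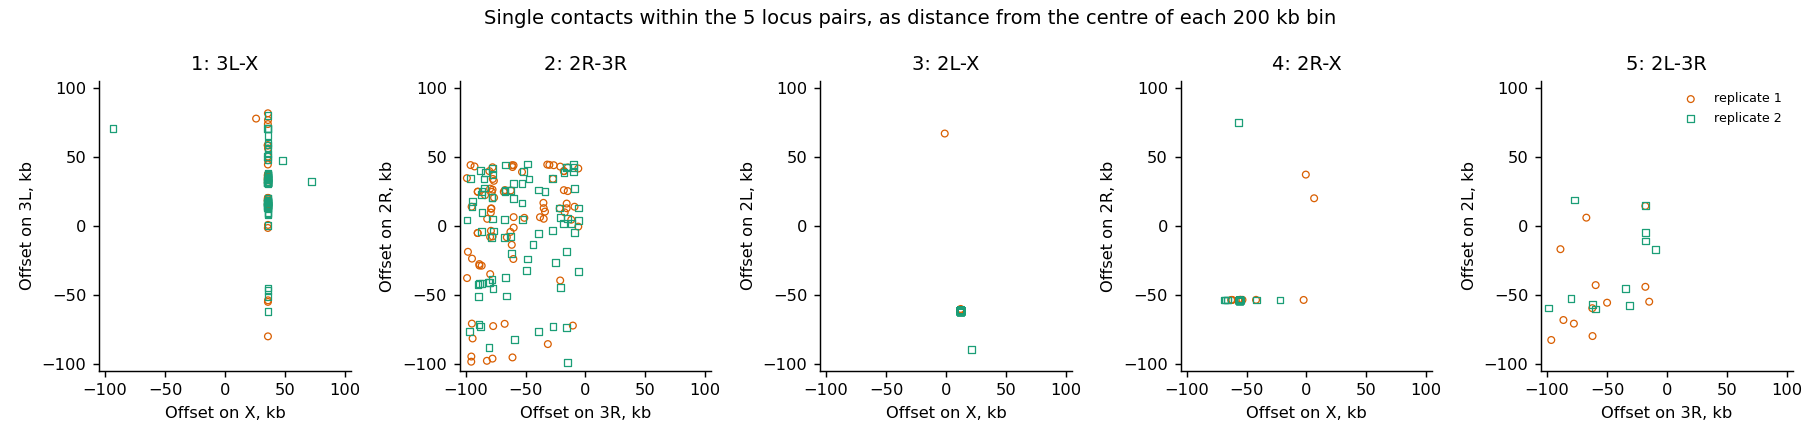
Each contact of the 5 locus pairs with the highest observed over expected in replicate 1, plotted by its distance in kb from the centre of the 200 kb bin on either arm, with circles for replicate 1 and squares for replicate 2. The telomere tips 2R-3R and 2L-3R are spread over the part of the bins that the arms cover, the 3L-X contacts form a line at 1 place on X, and the 2L-X and 2R-X contacts gather in 1 spot or line.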

How the data were processed

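Hi-C pairs of 2 replicate libraries were used as deposited, listing position, strand and parental copy of both ends and the aligner's mapping quality as a score. Per the labels and the study's methods, the authors quality-trimmed reads, mapped them by BWA 0.7.15 on both parental versions of dm3 at once, retained pairs whose ends each had 1 best place, and discarded duplicates. The deposited pairs were not normalized and were used with no other filter (lowest mapping quality 1). Total depth was 24390496 and 24659056 pairs.

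Parental suffixes were pooled. Coverage was the number of ends of informative pairs, left and right arms of a chromosome included. Locus pairs were named by rank: bins of 200 kb, at least 10 contacts in replicate 1, both bins over 0.25 of the median coverage, and the 5 with the highest O/E in replicate 1. All 8 arm pairs, the corner parts and the diagonal extremes were named. The arm pairs, tests and lists were chosen with earlier results of these data known. Alternatives changed mapping quality, coverage, low or uneven bins, centromere regions, number of parts, width and replicates. Calculations of the left-right odds ratio, X over 2-3, matched position, corners and same-parent odds ratio were tested on simulated data. The simulation had no SNVs and did not test the square-root expectations. Python 3.11.15, numpy 2.4.6, pandas 2.3.3, scipy 1.17.1 and matplotlib 3.10.9 were used.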

Additional observations from a re-analysis of the deposited data

How the results depend on the processing

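Precision was limited by having 2 replicates and, near the chromosome ends, by few contacts. No paired analysis was possible because all samples belong to 1 group. Leaving out a replicate gives the value of the other, which with 2 replicates always lies within 1 SD of the mean: the spread was then 1.51 to 1.58 and X over 2-3 was 1.35 to 1.41, and the other 8 are given per replicate above. Across the other 70 alternative values of the 10 results compared, 35 moved by less than 1 SD of the replicates, 33 by more, and 2 changed direction. Both concerned X over the pairs of chromosomes 2 and 3, which was 0.558 by arm length and 0.879 by the square root of length and coverage. Among the 35 are values that could not move. With 20 parts per arm the corners covered the same stretch, and scaled over absolute kept its own coverage when all ends were used. Alternatives from pairs within an arm, all square roots and the omission of locus pairs were chosen after seeing the data. Of the 8 arm pairs, each changed side of 1 by arm length: 1.34 (2L-3L), 1.20 (2L-3R), 1.33 (2R-3L), 1.23 (2R-3R), 0.709 (2L-X), 0.742 (2R-X), 0.710 (3L-X) and 0.685 (3R-X). The cause of the other shifts was not tested.

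With mapping quality of at least 30, the spread was 1.78, the left-right odds ratio 1.04, X over 2-3 1.50, matched over mismatched 1.38, the centromere corner 2.47 and the telomere corner 1.89. With coverage from all ends, the spread was 1.38, X over 2-3 1.24 and the centromere corner 1.83. The spread was 1.95 by arm length, 1.24 by the square root of length and coverage, and 1.11 with copies, where X over 2-3 was 1.01. With copies and coverage within an arm they were 1.15 and 1.05. With coverage from pairs within an arm, the spread was 1.68, X over 2-3 1.48 and the centromere corner 1.94. With coverage from interchromosomal ends, the centromere, telomere and mixed corners were 1.74, 1.70 and 0.718. Without 2 Mb at the centromere end, the centromere corner was 2.71 ± 0.454 and the mixed corner 0.905. Since a part is 10% of an arm, this left little of part 1, so these corners cover a different stretch. Scaled over absolute was then 0.973. Without uneven bins, the left-right odds ratio was 1.02, the centromere corner 1.80, the telomere corner 1.90 and scaled over absolute 0.980. The centromere corner was 1.77 without low coverage bins and 1.70 without its 5 locus pairs. Same-parent pairs gave a left-right odds ratio of 1.022 and cross-parent pairs 1.034, and a width of 2 Mb gave scaled over absolute 0.978.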
